A study of Mus musculus with 816 samples.

Results

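The type I interferons IFNa and IFNb were each given alone to cultures of primary mouse microglia for 72 h, and 11 cultures were treated in this way. They are all cultures whose labels give IFNa or IFNb as the only stimulus at 72 h, and they belong to 784 cultures in a series of 816 samples. IFNa was used at 0.0008 ug/ul in 7 cultures and IFNb at 0.0001 ug/ul in 4, and 25 untreated cultures of the same time served as controls. The question was which genes of the interferon response were still raised after 72 h of exposure, so the same stimuli at the same doses for 24 h were set beside them (8 cultures with IFNa, 10 with IFNb and 40 untreated). A further 6 cultures given IFNg, the type II interferon, at 0.0001 ug/ul for 72 h were used to see where the responses to the 2 types of interferon differed. All cultures were microglia from neonatal mouse brain bought from one supplier, grown in 96-well plates and treated by changing to medium that held the stimulus. No strain is given in the labels of the cultures. Whether wells came from separate animals is not stated either, so p-values measure the spread between wells, which may be technical. Without plate as a term this spread also holds differences between plates and lots.

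Type I interferons are secreted when a cell senses a virus or foreign nucleic acid. They bind a shared receptor, Ifnar1 and Ifnar2, whose kinases Jak1 and Tyk2 switch on the factor ISGF3, which contains Stat2 and Irf9. It binds a DNA element called the interferon-stimulated response element (ISRE) in the promoters of antiviral genes. IFNg uses another receptor and acts mainly through a different element called GAS. The response is restrained by feedback inhibitors such as Usp18 and Socs1, and microglia are among the brain cells known to answer both types of interferon.

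The promoters of 4 genes are shown to make this element visible in genes that rose in the treated cultures. Each sequence is the 200 bases before the RefSeq start of the gene, read 5′ to 3′ on the strand of the gene in GRCm38.p6. Capitals mark matches to the ISRE core GAAANNGAA on either strand. In Ifit3, an antiviral protein that binds viral RNA together with its relatives, chr19:34583329-34583528 on the plus strand held 3 matches between 155 and 102 bases before the start. In Isg15, a ubiquitin-like protein that is attached to other proteins, chr4:156200819-156201018 on the minus strand held 3 overlapping matches between 78 and 66 bases before it. In Rsad2, which encodes the antiviral enzyme viperin, chr12:26456453-26456652 on the minus strand held 1 match, 119 bases before the start. In Gbp2, a guanylate-binding protein that attacks the vacuoles of pathogens, chr3:142620463-142620662 on the plus strand held 1 match, 58 bases before the start.
Ifit3: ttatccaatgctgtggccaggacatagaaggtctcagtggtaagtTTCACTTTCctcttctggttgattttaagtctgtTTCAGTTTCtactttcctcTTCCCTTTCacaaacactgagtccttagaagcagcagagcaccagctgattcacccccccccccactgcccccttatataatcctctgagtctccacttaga
Isg15: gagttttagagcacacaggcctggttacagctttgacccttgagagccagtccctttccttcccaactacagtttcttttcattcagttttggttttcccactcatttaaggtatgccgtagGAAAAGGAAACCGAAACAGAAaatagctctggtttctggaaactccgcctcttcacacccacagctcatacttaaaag
Rsad2: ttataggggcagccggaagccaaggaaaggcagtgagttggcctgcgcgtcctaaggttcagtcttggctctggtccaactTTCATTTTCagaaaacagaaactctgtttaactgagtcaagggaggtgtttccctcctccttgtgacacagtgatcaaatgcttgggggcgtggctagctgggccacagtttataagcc
Gbp2: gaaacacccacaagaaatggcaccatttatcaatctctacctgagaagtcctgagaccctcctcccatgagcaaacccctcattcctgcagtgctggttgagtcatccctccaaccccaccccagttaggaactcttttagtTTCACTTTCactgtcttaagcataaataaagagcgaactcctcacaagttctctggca

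Levels are given as CPM, which here count a gene's reads in every 1e6 that were mapped. Mapped reads at 72 h ranged from 1.29 to 14.4 M per culture (M for 1e6), and 6830 to 9242 genes per culture were above 5 CPM. A log2 change is a difference between group means of log2(CPM + 1), which understates the change of genes at low levels. For both interferons together it is the mean of the IFNa and IFNb changes. A gene was called at a Benjamini-Hochberg adjusted p under 0.05 in limma and an absolute log2 change of 1 or more, among the 12843 genes tested. Microglia and macrophage markers, 12 of 12 detected, summed to between 5620 and 16590 CPM in the treated cultures and to between 7522 and 15030 CPM in the untreated ones. Astrocyte markers had medians of at most 19.7 CPM in these groups and neuron markers of at most 1.77. Endothelial and mural cell markers had medians of 97.6 (IFNa), 99.2 (IFNb) and 55.2 CPM (untreated), with Cldn5 and Tek below 1 CPM in all 3 groups. Of these 9 markers 5 (IFNa), 5 (IFNb) and 4 (untreated) reached 1 CPM in at least 1 culture. Perivascular macrophage markers summed to medians of 598 (IFNa), 1070 (IFNb) and 681 CPM (untreated). Of these 7 markers 4 (IFNa), 3 (IFNb) and 6 (untreated) reached 1 CPM in at least 1 culture, and Lyve1 did so in none of these groups. The part of such cells in the results was not tested. In bulk cultures fewer cells of a type and less RNA per cell cannot be told apart.

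The 72 h cultures lay on 4 plates, called A to D here. They shared 1 source ID, which is read here as 1 lot of cells. Plate A held 4 IFNa cultures and 4 untreated ones, plate C 3 IFNa cultures and 6 untreated ones, and plate B all 4 IFNb cultures with 10 untreated ones. Plate D held 5 untreated cultures and 3 of the 6 IFNg cultures, and the other 3 IFNg cultures were on plate B. IFNa and IFNb thus shared no plate. On plate A 3 IFNa cultures were in middle wells and 1 at an edge. All untreated cultures of plates A, C and D were in edge or corner wells, and the IFNa cultures of plate C were in edge wells. On plate B all untreated and IFNb cultures were in middle wells. Treatment and well position thus went largely together on plate A, and the part of well position in the IFNa changes was not tested. One untreated culture of plate B, replicate 10, stood apart. It had 1538 CPM of Ifit3, while the other 24 untreated cultures had at most 187 and the treated ones at least 1696. Its Isg15 was 112 CPM against at most 31.7 in the other untreated cultures, and its summed antiviral genes were 5830 CPM against at most 2170 in the others and 9760 to 20800 in the treated cultures. It was kept as labelled, and results that turn on it are given with and without it. The 24 h cultures came from other plates and from 3 lots, so time cannot be told apart from plate. The lot of the 72 h cultures held 4 of the IFNa and 8 of the untreated cultures of 24 h, and 0 of the IFNb ones. For IFNb, time thus cannot be told apart from lot either.

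Against untreated cultures of 72 h, 573 genes (4.46% of those tested) were called higher with both interferons together and 387 (3.01%) lower. With culture plate as a term these counts were 519 and 627, so the share of lower calls rose, while 480 of the 573 higher genes remained called. Without replicate 10, 572 of the 573 remained. IFNa alone gave 468 higher (3.64%) and 771 lower (6%), and with plate 567 and 557. IFNb alone gave 550 higher (4.28%) and 156 lower (1.21%), with plate 344 and 405, and 402 and 504 against untreated cultures in middle wells, where all IFNb cultures lay. The counts of lower genes moved more between these settings than those of higher genes. In 72 genes (0.561%) all 11 treated cultures lay above all 25 untreated cultures, and in 11 (0.0856%) below them. Without replicate 10 these were 91 (0.709%) and 11.

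The antiviral effector list held 41 tested genes of the IFIT, OAS, MX, IFITM and related families, whose products bind viral RNA, degrade it or block entry of viruses. Of these 36 were called higher and 1 lower at 72 h, beside the 4.46% and 3.01% of all genes, and the median change of the list was 3.37 against -0.02 over all genes. Of the 19 lists of genes compared, ISG15 conjugation (3.35) and nucleic acid sensors (3.30) had medians close to it, and with culture plate as a term theirs (3.13 and 3.10) were above that of the antiviral list (3.00). Ifit3 was at 0.835, 77.4 and 1538 CPM (lowest, median, highest) in untreated cultures, at 1696, 4373 and 4916 with IFNa, and at 5001, 5860, 4331 and 3968 in the IFNb cultures. All treated cultures lay above all untreated ones, of which only replicate 10 came close. The log2 change was 6.22 (SE 0.44, adjusted p = 3.32e-23), and within plates it was 5.75 on plate A, 6.45 on plate C and 5.16 on plate B.

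Isg15 was at 0, 9.71 and 112 CPM in untreated cultures and at 596, 415, 507 and 557 with IFNb. Among the IFNa cultures it was 412, 413, 373 and 205 on plate A and 92.8, 79.6 and 91.2 on plate C. The cultures of plate C were thus lower than the rest and overlapped replicate 10, the one untreated culture above 31.7 CPM. The untreated cultures of plate C, with a median of 1.45 CPM, were lower as well, and within plates the log2 differences were 4.79, 5.09 and 4.90 on plates A, C and B. The pooled change was 5.34 (SE 0.41, adjusted p = 4.78e-21).

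Rsad2 rose from an untreated median of 26.3 CPM, with a highest culture of 379, to between 884 and 2489 with IFNa, and it was 1659, 1878, 1979 and 1844 with IFNb. Its groups did not overlap, and the log2 change was 6.09 (SE 0.40, adjusted p = 9.62e-25). Mx1, a GTPase that traps viral particles in the cell, was at 0, 5.58 and 116 CPM in untreated cultures, at 101, 466 and 675 with IFNa and at 588, 494, 532 and 544 with IFNb. The lowest IFNa culture lay under replicate 10 but above the other untreated cultures, which reached 23.2 CPM, and the change was 6.11 (SE 0.43). Cmpk2, a mitochondrial nucleotide kinase, changed by 5.89 (SE 0.49), and Ifi205, of the family of DNA-binding p200 proteins, by 5.26 (SE 0.50). Both were without overlap. The change of Oasl1, a member of the oligoadenylate synthetase family, was 6.15 (SE 0.53, adjusted p = 3.29e-18) and its groups did not overlap. Ifitm3, which hinders entry of enveloped viruses at endosomes, reached 987 to 2416 CPM in the IFNa cultures of plate A, 326 to 507 in those of plate C and 1036 to 1471 with IFNb. All of these were above the highest untreated culture, at 207 CPM, and the change was 4.63 (SE 0.45). Bst2, which tethers budding virus to the cell surface, changed by 3.15 (SE 0.27), without overlap. Reads of Ifit3 and its close copy Ifit3b may have been split between them by the counting.

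**Figure D1:**
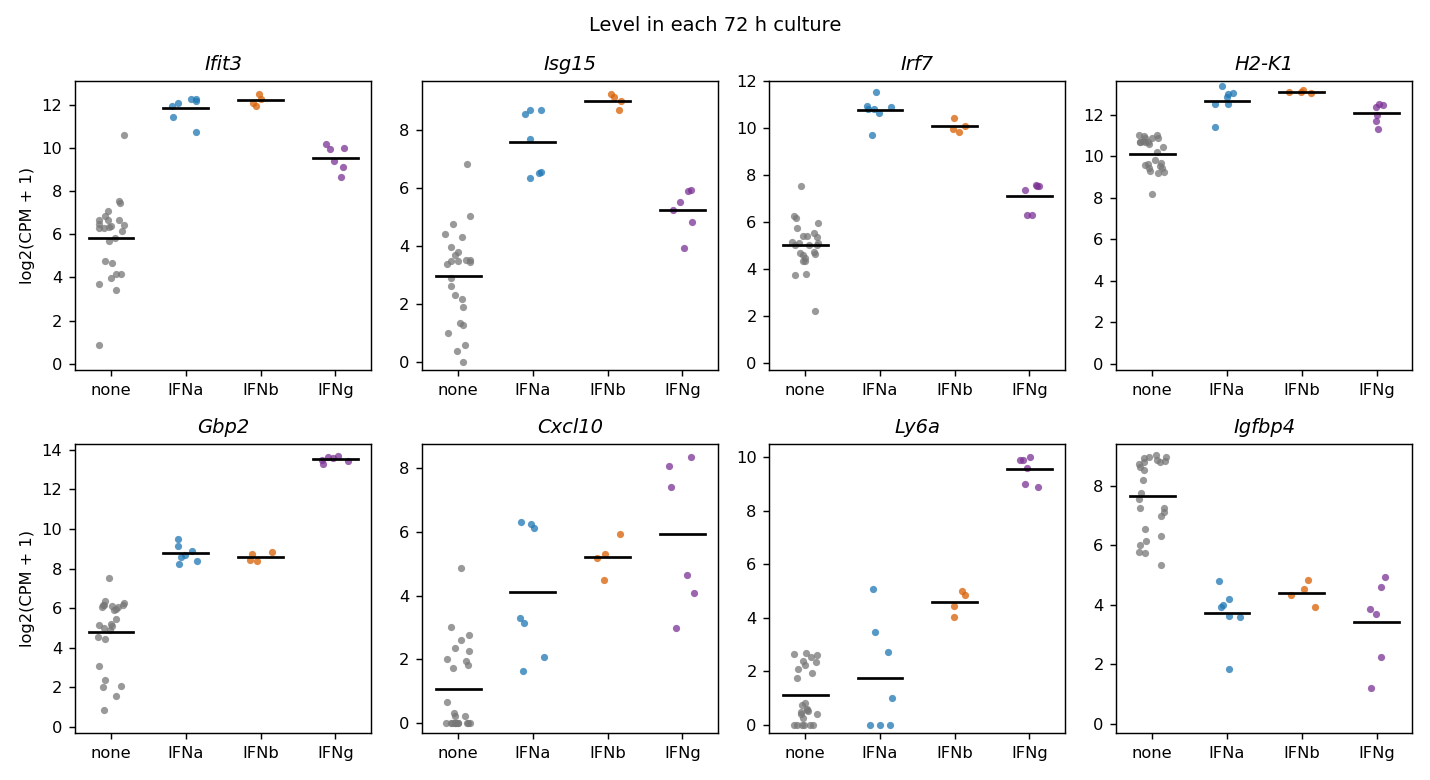
Level of 8 genes in each 72 h culture, as log2(CPM + 1), in untreated (none), IFNa, IFNb and IFNg cultures. Points are cultures and black bars are group means. Ifit3, Irf7, H2-K1 and Gbp2 of all IFNa and IFNb cultures lie above all untreated cultures, Igfbp4 lies below them, and Gbp2 and Ly6a are highest with IFNg.

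At 24 h, 37 of the 41 antiviral genes were called higher with both interferons, beside 4.15% of all genes, and 1 was lower, beside 7.83%. The median change was 3.34 at 24 h and 3.37 at 72 h. Of the 37, 35 were called higher at both times. Ifi44l and Zc3hav1 were called at 24 h alone, and Ifitm1 at 72 h alone, where its change of 1.80 was lost with the exact rank-sum test (adjusted p = 0.284) and with plate as a term once replicate 10 was left out (adjusted p = 0.0551). For Ifit3 the 24 h change was 5.91, and the difference of 0.31 between times was not called (SE 0.55, adjusted p = 0.892). In the plot of the responses at both times, most antiviral genes lie along the line of equal change.

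The system that attaches Isg15 to other proteins, with 6 genes tested, was called higher for 6 of 6 at both times, with medians of 3.35 at 72 h and 3.38 at 24 h. Usp18, which removes Isg15 from proteins and blocks the receptor, rose from an untreated median of 11.8 CPM (highest culture 92.4) to between 202 and 476 with IFNa. In the IFNb cultures it was 321, 336, 298 and 333 CPM. Its groups did not overlap and the change was 4.67 (SE 0.38, adjusted p = 1.68e-19). Among PARP and ubiquitin-linked antiviral genes 10 of 10 were called at both times, with a median of 2.52 at 72 h. Parp14, an enzyme that adds ADP-ribose to proteins, changed by 2.59 (SE 0.28) without overlap.

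Sensors of foreign nucleic acid were called higher in 15 of 19 genes at 72 h, with a median change of 3.30 (14 with plate as a term). At 24 h it was 15 of 19 as well, and 13 were shared. Ddx58, which encodes the RNA sensor RIG-I, was at 0.835, 89 and 334 CPM in untreated cultures and at 383, 580 and 877 with IFNa, and it was 792, 711, 890 and 848 with IFNb. All treated cultures lay above the untreated ones, with a change of 3.30 (SE 0.30, adjusted p = 6.81e-17). Zbp1, a sensor of Z-form nucleic acid, changed by 4.35 (SE 0.38), and Ifih1, the RNA sensor MDA5, by 3.07 (SE 0.34). Their lowest IFNa cultures, at 50.8 and 44.2 CPM, lay below the highest untreated ones, at 70.1 and 111. Aim2 and Nod1 were called at 24 h alone, though Nod1 was also called at 72 h with plate as a term (1.19, adjusted p = 0.0328) and without IFNa replicate 5 (1.37, adjusted p = 0.0253). Tlr7 and Tmem173 were called at 72 h alone, with changes of 1.18 and 1.46, and neither call held with plate as a term (0.92, adjusted p = 0.00938, under the minimum change, and 1.00, adjusted p = 0.1). Tmem173 also lost its call without any one of IFNa replicates 1, 2 and 3 or of the 4 IFNb cultures, with adjusted p between 0.052 and 0.0929.

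Of 11 genes of the receptor and its signalling chain, 3 were higher, Stat2 and Irf9 among them, and the median change of the list was 0.52. Stat2 changed by 3.42 (SE 0.29) and did not overlap between groups. Irf9 changed by 1.42 (SE 0.23, adjusted p = 7.45e-07) and overlapped. At 24 h these changes were 3.65 and 1.47, and neither difference between times was called.

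Of 7 interferon regulatory factors, which are transcription factors, 4 were higher at 72 h (3 with plate as a term), with a median of 1.04. Irf7, which amplifies the interferon response, rose furthest. It was at 3.6, 31.7 and 185 CPM in untreated cultures, at 822, 1819 and 2968 with IFNa, and at 1098, 1360, 996 and 902 with IFNb. The groups were far apart, and the change was 5.40 (SE 0.36, adjusted p = 1.05e-24), beside 5.20 at 24 h. Irf1 changed by 2.33 (SE 0.25) and Irf5 by 1.04 (SE 0.22). With plate the change of Irf5 was 0.95 (adjusted p = 2.75e-05) and without IFNa replicate 2 it was 0.99 (adjusted p = 0.000924), both under the minimum. Irf2 was called at 24 h alone. Among 13 feedback inhibitors of cytokine signalling, 4 were higher at 72 h, namely Usp18, Socs1, Trex1 and Nlrc5, and the list median was 0.11. Socs1, which inhibits the receptor kinases, was at 0, 5.17 and 37.2 CPM in untreated cultures, at 1.21, 20.6 and 87.9 with IFNa, and at 53.3, 33.4, 43.8 and 44.1 with IFNb. In 3 of the 4 IFNb cultures it exceeded every untreated culture, while the IFNa cultures overlapped them, and the change was 2.59 (SE 0.46, adjusted p = 5.85e-06).

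Genes of MHC class I and antigen processing, which load peptides for display to CD8+ T cells, were higher at 72 h in 20 of 24 tested genes. The same 20 genes were called higher at 24 h. Their median change was 1.85 at 72 h and 1.78 at 24 h. H2-K1, a class I heavy chain, was at 294, 1378 and 2110 CPM in untreated cultures, at 2754, 7468 and 10540 with IFNa, and at 8624, 8410, 8883 and 9480 with IFNb. All treated cultures lay above the untreated ones, and the change was 2.76 (SE 0.22, adjusted p = 1.45e-19). B2m, the light chain of class I molecules, was at 865 to 4073 CPM in untreated cultures and at 5503 to 8857 in treated ones, a change of 1.86 (SE 0.15). Tap1, part of the peptide transporter, changed by 3.32 (SE 0.27) and Psmb8, a subunit of the immunoproteasome, by 2.05 (SE 0.20). Calr, a chaperone in the list, fell by 1.25 (SE 0.20, adjusted p = 4.64e-07), to between 177 and 450 CPM from an untreated median of 857.

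Some class I genes were further from control at 72 h than at 24 h. The difference between the responses was called positive for 3 genes of the list and negative for 1, beside 0.21% and 0.226% of all genes. H2-K1 had a 24 h change of 1.59, and the difference was 1.17 (SE 0.28, adjusted p = 0.0193), with 0.91 when plate was a term (adjusted p = 0.000899, under the minimum change). In treated cultures H2-K1 was at 4965 to 9350 CPM at 24 h, within the span of its 72 h levels, while the untreated median was 2687 CPM at 24 h and 1378 at 72 h. Untreated cultures of 72 h had 1650 to 2110 CPM of H2-K1 in the middle wells of plate B. In the edge and corner wells of the other plates they had 294 to 1632 CPM. For H2-Q7 the difference was 2.02 (SE 0.48, adjusted p = 0.0193) and for H2-Q6 1.72 (SE 0.42, adjusted p = 0.0234). These are near-identical copies, between which reads may have been split, and the call of H2-Q6 was lost without IFNb replicate 4 (1.66, adjusted p = 0.0639). Untreated medians of H2-Q7 were 67.3 CPM at 24 h and 26.8 at 72 h, while IFNa medians were 539 and 424. Tapbp, a peptide-loading chaperone, had a difference of -1.03 (SE 0.25, adjusted p = 0.0212). With plate it was -0.71 (adjusted p = 0.0337), and without IFNa replicate 5 it was -0.93 (adjusted p = 0.0461), both under the minimum change. Without IFNb replicate 2 or 4 the adjusted p was 0.0518 or 0.0531. Its own change at 72 h, 1.04 (SE 0.20), was 0.97 without IFNa replicate 7. H2-K1, H2-Q6, H2-Q7 and Tapbp were not among the 14 genes whose difference was called for IFNa within 1 lot.

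**Figure D2:**
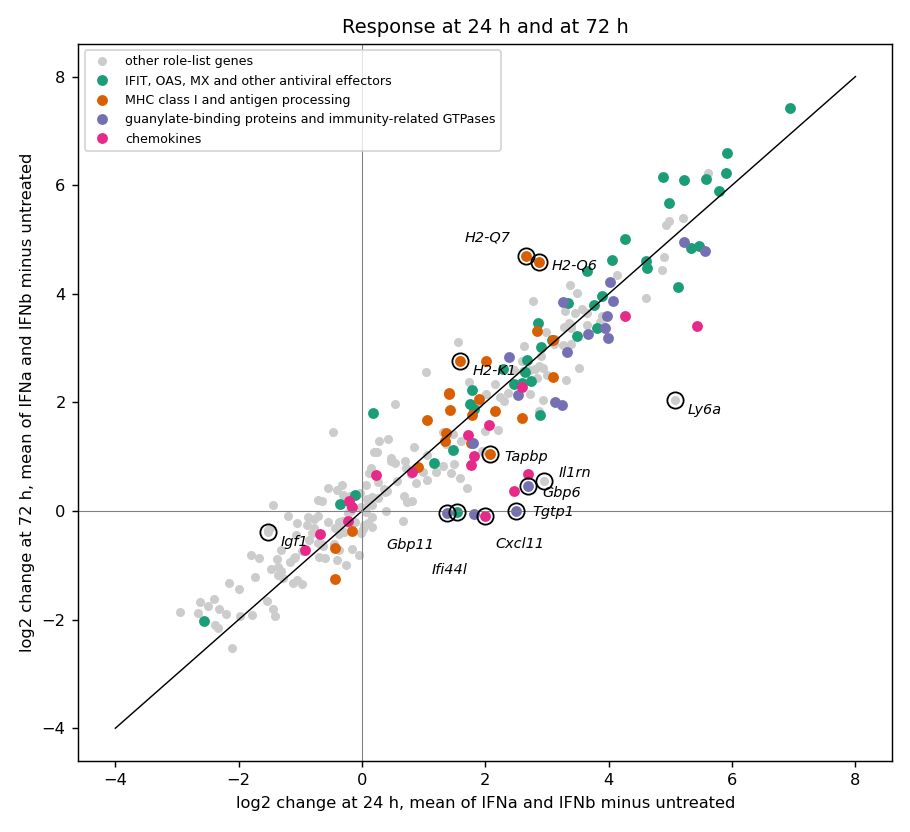
Log2 change of role-list genes with both interferons against untreated cultures of the same time, at 24 h on the x axis and at 72 h on the y axis. The line marks equal change, and rings mark genes whose difference between times was called. Antiviral genes follow the line, H2-K1, H2-Q6 and H2-Q7 lie above it, and Ly6a, Il1rn, Cxcl11, Gbp6 and Tgtp1 lie below it.

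MHC class II genes, which serve display to CD4+ T cells, gave 1 call in 6 tested genes, for H2-DMb1 (1.29, SE 0.41, adjusted p = 0.0239), and had a median change of 0.13. That call was lost with the 3 groups at 72 h fitted alone (adjusted p = 0.0896) and at a pseudocount of 5 (0.86, under the minimum change). H2-Ab1 was at 0, 3.74 and 20.7 CPM in untreated cultures, at 0, 0.345 and 13.9 with IFNa, and at 5.96, 5.37, 18.3 and 19.8 with IFNb. The groups overlapped throughout and the change of 0.41 was not called (adjusted p = 0.689).

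Guanylate-binding proteins and immunity-related GTPases, which act against pathogens in vacuoles, were higher in 15 of 19 genes at 72 h and in 19 of 19 at 24 h. The medians were 2.94 and 3.26. Gbp2 was at 0.797, 35.4 and 181 CPM in untreated cultures, at 304, 412 and 719 with IFNa, and at 343, 456, 336 and 418 with IFNb. The groups did not overlap and the change was 3.86 (SE 0.38, adjusted p = 6.86e-15), beside 4.07 at 24 h. Untreated levels of Gbp2 differed by plate, with medians of 14.7, 71.3, 3.1 and 33.7 CPM on plates A to D. Igtp changed by 3.38 (SE 0.30) and Iigp1 by 4.96 (SE 0.39), both without overlap.

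The 4 members called at 24 h alone were Gbp2b, Gbp6, Gbp11 and Tgtp1, and none of them passed 7.54 CPM in a treated culture of 72 h. Gbp11 was listed at 0 in all 11 treated cultures at 72 h, while at 24 h the IFNa cultures had a median of 1.93 CPM and the IFNb cultures 1.56. The difference between responses was -1.42 (SE 0.26, adjusted p = 0.000411), at low levels. Gbp6 was listed at 0 in all untreated cultures of 72 h and reached 7.54 CPM in IFNb replicate 2 and at most 1.16 in the IFNa cultures. Its 3 other IFNb cultures were listed at 0, against a median of 47.4 CPM in the IFNb cultures at 24 h, and the difference was -2.23 (SE 0.44, adjusted p = 0.002). In the IFNa cultures at 24 h its median was 0. Tgtp1 reached 0.0673 CPM at most with either interferon at 72 h and had a median of 21.4 CPM with IFNb at 24 h. Its difference of -2.49 (SE 0.62, adjusted p = 0.0258) had an adjusted p of 0.0501 with plate as a term, and of 0.0521 to 0.0535 without IFNb replicate 1, 2 or 4. Gbp6 and Tgtp1 have close copies, so their values are uncertain.

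Of 17 chemokines, which attract leukocytes, 10 were higher at 24 h and 5 at 72 h, where they were Ccl4, Ccl5, Ccl8, Ccl12 and Cxcl10. The calls of Ccl4 and Ccl5 (1.40 and 1.59) were lost with the exact rank-sum test (adjusted p = 0.249 and 0.0563). The list median was 1.76 at 24 h and 0.69 at 72 h. Cxcl10, a ligand of the T-cell receptor Cxcr3, was at 0, 0.182 and 28.1 CPM in untreated cultures and at 21.2, 59.8, 35.5 and 38.2 with IFNb. With IFNa it was 77.9, 67.6 and 74.6 CPM in replicates 1 to 3 and between 2.12 and 8.80 in the other 4. These 4 lay under the highest untreated culture, replicate 10, and without it replicates 4 and 5 (8.80 and 7.73) exceeded all untreated cultures, which reached 7.01. Within their own plates all 4 were above the untreated cultures, at most 0.581 CPM on plate A and 0 on plate C. The change was 3.59 (SE 0.57, adjusted p = 4.92e-07), with 5.26 on plate A and 2.28 on plate C. The 24 h change was 4.27, and the difference of -0.68 was not called (adjusted p = 0.802).

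Ccl2, Ccl7, Ccl9, Cxcl9 and Cxcl11 were called at 24 h and not at 72 h, although Ccl9 was called at 72 h without IFNa replicate 5 (1.06, adjusted p = 0.0011). Cxcl11 reached at most 0.554 CPM in the treated cultures at 72 h, beside medians of 19.4 with IFNa and 9.12 with IFNb at 24 h. The difference was -2.08 (SE 0.54, adjusted p = 0.043), the one call of the list, and it was lost without IFNa replicate 1 or any one of the 4 IFNb cultures (adjusted p between 0.0525 and 0.0887). With plate as a term 5 chemokines had a lower response at 72 h than at 24 h. Among these were Ccl2 (-3.03, adjusted p = 3.39e-07), Cxcl9 (-2.52, adjusted p = 4.6e-05) and Ccl8 (-2.74, adjusted p = 0.00372). Ccl2 was at 0, 6.39 and 46.2 CPM in untreated cultures of 72 h, at 0.498, 6.49 and 10.4 with IFNa, and at 10.1, 19.8, 13.3 and 15 with IFNb. These groups overlapped, whereas at 24 h the untreated median was 7.65 CPM and those with IFNa and IFNb were 38.1 and 35.1. Ccl8, in contrast, was called at both times. Its untreated median was 0.594 CPM at 72 h, with 1 culture, replicate 10, at 302, and it was 35.2, 35.7, 31 and 31.2 with IFNb.

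Among 13 inflammatory cytokines and enzymes, 5 were higher at 72 h (3 with plate as a term), with a list median of 0.91. Il15, which sustains NK and memory T cells, was at 76.3, 124, 81.4 and 115 CPM with IFNb against at most 36.3 in untreated cultures, and it was between 50.6 and 77.4 in 6 of the 7 IFNa cultures and 3.49 in the other. Its change was 2.18 (SE 0.42, adjusted p = 3.31e-05). Il1rn, which encodes the antagonist of the interleukin-1 receptor, was called at 24 h alone. It was at 0, 5.35 and 8.2 CPM with IFNa and at 5.76, 0.934, 4.99 and 4.67 with IFNb at 72 h, inside the untreated range of 0 to 17.3. At 24 h it was at 19.3 CPM in the median untreated culture, 95.4 with IFNa and 219 with IFNb. The difference between responses was -2.39 (SE 0.52, adjusted p = 0.00538). Within the one lot present at both times it was -0.56 for IFNa (adjusted p = 0.862). Of 19 cell death genes 6 were higher (median 0.68), among them Mlkl, the executor of necroptosis (3.68, SE 0.42, no overlap), and Xaf1, an antagonist of apoptosis inhibitors (4.41, SE 0.36, no overlap). Casp1 and Gsdmd, which act in pyroptosis, were called at 24 h, and at 72 h their changes of 0.84 and 0.87 were under the minimum.

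Surface receptors and co-stimulatory genes were higher at 72 h in 16 of 19 genes, with a median of 2.64, beside 2.62 at 24 h. Ly6e, a small protein on the cell membrane, was at 79, 130 and 526 CPM in untreated cultures, at 2145, 2662 and 4861 with IFNa and at 2286, 2032, 2264 and 2263 with IFNb, a change of 4.16 (SE 0.25, adjusted p = 6.23e-27) without overlap. Ms4a4c, a membrane protein of the MS4A family, was at 0, 1.88 and 20 CPM in untreated cultures and at 423, 460, 436 and 374 with IFNb. With IFNa it was 399, 505, 337 and 44.8 on plate A and 34.9, 43.6 and 95 on plate C. All treated cultures were above the untreated ones, and the change was 6.22 (SE 0.43, adjusted p = 9.32e-24). Fcgr1, the high-affinity receptor for IgG, changed by 3.41 (SE 0.21) and Cd274, the checkpoint ligand PD-L1, by 2.86 (SE 0.30). Siglec1, a sialic acid receptor often used as a mark of interferon exposure, was at 93.1, 102, 104 and 103 CPM with IFNb against at most 33 in untreated cultures. With IFNa it ran from 3.02 to 145 CPM, and the change was 3.04 (SE 0.39, adjusted p = 4.59e-10). Fcgr2b, the inhibitory receptor for IgG, fell by 1.63 (SE 0.32, adjusted p = 7.53e-05), as it did at 24 h, by 2.39. Among 11 complement genes, with a median change of 0.60, C2, Cfb and C1qc were higher. Cfb lost its call with the exact rank-sum test (adjusted p = 0.0678), and with plate as a term its response was lower at 72 h than at 24 h (-1.62, adjusted p = 0.00171). The call of C1qc (1.09, adjusted p = 0.0182) was lost with plate as a term (0.69, adjusted p = 0.0031) and without IFNa replicate 1, 2 or 3 or IFNb replicate 4 (0.93 to 1.04, adjusted p between 0.0492 and 0.0568). C2 changed by 2.15 (SE 0.30) at 72 h and 2.00 at 24 h.

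Ly6a, a surface protein also known as Sca-1, was the one gene of the surface list whose difference between times was called. At 24 h it was at 0, 3.12 and 25.8 CPM in untreated cultures, at 23.3, 132 and 318 with IFNa, and at 76.3, 159 and 341 with IFNb. At 72 h it was at 31.1, 20.8, 15.5 and 27.7 CPM with IFNb. It was 5.54, 32.7 and 9.93 CPM in IFNa replicates 1 to 3, 0.996 in replicate 6, and listed at 0 in replicates 4, 5 and 7. Untreated cultures reached 5.44 CPM. The IFNb cultures and 3 of the 7 IFNa cultures were thus above all untreated cultures of 72 h, though below most treated cultures of 24 h. The change was 5.08 at 24 h and 2.05 at 72 h, where its call was lost with the exact rank-sum test (adjusted p = 0.179). The difference was -3.04 (SE 0.61, adjusted p = 0.00202). It was -3.18 with plate as a term and -4.28 for IFNa within 1 lot (adjusted p = 0.000689). Klrk1, which encodes the activating receptor NKG2D, was named by the size of this difference. It had medians of 64.2 CPM (IFNa) and 99.8 (IFNb) at 24 h. At 72 h it was 1.44, 2.33, 1.11 and 0.914 CPM with IFNb and at most 13.9 with IFNa, where 4 of 7 cultures were listed at 0. Its difference was -3.74 (SE 0.61, adjusted p = 5.86e-05), but within 1 lot it was -1.88 for IFNa (adjusted p = 0.228).

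Over all genes, 380 of the 533 genes called higher at 24 h were called higher at 72 h, a share of 71.3% (95% Wilson interval 67.3 to 75, over genes, which are not independent), beside 4.46% of all genes. These 380 were 66.3% of the 573 genes higher at 72 h. The 24 h and 72 h comparisons share no culture. The genes higher at 24 h had a median change of 1.77 at 24 h and 1.64 at 72 h, and 520 of them (97.6%) were above 0 at 72 h, against 48.2% of all genes. The difference between the responses at both times, tested directly, was negative in 24 and positive in 5 of the 533. These genes were picked for their 24 h change, which this difference subtracts, so the selection itself favours negative values. Whether their response faded thus cannot be read from this split. The same limit holds for the medians of genes picked as higher or lower at 24 h. Of the genes lower at 24 h, 226 of 1006 (22.5%) were called lower at 72 h, beside 3.01% of all genes, and 2 were called higher. With plate as a term the share was 34.9%. Their median change was -1.29 at 24 h and -0.74 at 72 h, and 877 of them were below 0 at 72 h. Over all tested genes the difference between times was called in 27 (0.21%) positive and 29 (0.226%) negative, and in 40 and 60 with plate. For IFNa in the 1 lot present at both times, with 4 treated and 8 untreated cultures at 24 h, it was called in 14 of 11391 genes, Ly6a among them.

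**Figure D3:**
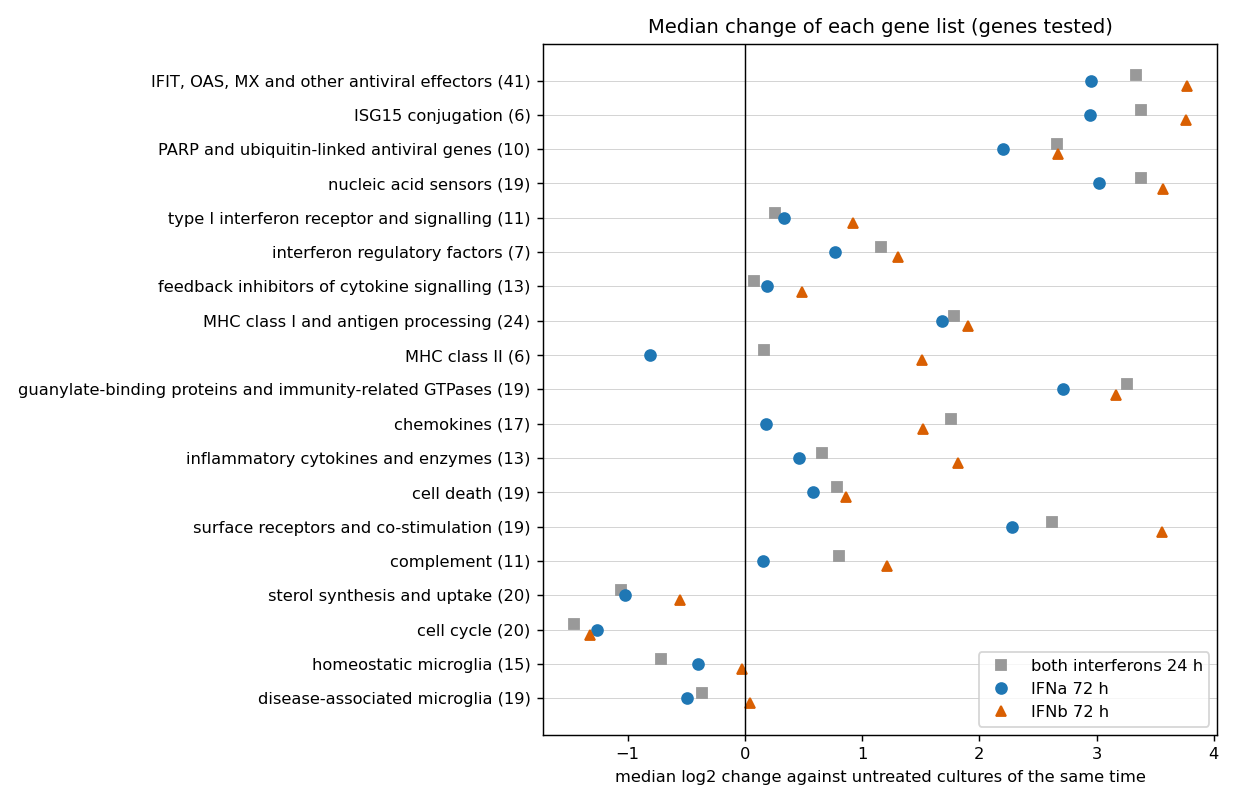
Median log2 change of each gene list against untreated cultures of the same time, with the number of genes tested in brackets. Squares show both interferons at 24 h, circles IFNa at 72 h and triangles IFNb at 72 h. The antiviral list lies near 3 or above in all of them (3.34, 2.95 and 3.77), whereas the chemokine list has a median of 1.76 at 24 h.

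The ISRE core was also counted in RefSeq promoters from 250 bases before to 50 bases after the start, on both strands. It was found in 8.57% of all 27025 promoters of the table and in 7.45% of the 8936 tested genes that could be matched to one. Among genes higher at 72 h, 398 of 573 were matched and 97 of these (24.4%) held it. Of the genes higher at both times, 266 of 380 were matched and 78 (29.3%) held it, beside 18 of 103 (17.5%) for genes higher at 24 h and not called higher at 72 h. Among genes lower at 72 h it was in 5.78% of 277. The GAS letters TTCNNNGAA, which can overlap the ISRE core, were in 7.04% of promoters of tested genes, in 12.1% of those of genes higher at 72 h and in 7.94% of those of lower genes. Such a match is a description of the letters and not a mapped site. All 4 promoters printed above belong to genes called higher at both times.

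The 10 largest falls held no gene of the antiviral lists. Igfbp4, which binds insulin-like growth factors, was at 39.2, 217 and 520 CPM in untreated cultures, at 2.58, 14.2 and 27.2 with IFNa, and at 27.5, 14.3, 22 and 19 with IFNb. All treated cultures lay below all untreated ones, and it fell by 3.58 (SE 0.35, adjusted p = 2.75e-15), beside 2.90 at 24 h. Sort1, the sorting receptor sortilin, was at 79.2, 197 and 291 CPM in untreated cultures, at 3.09, 19.1 and 39.5 with IFNa and at 33.9, 31.5, 35.5 and 58 with IFNb. It did not overlap either and fell by 2.94 (SE 0.27). Ptgs1, which encodes cyclooxygenase 1, fell by 3.17 (SE 0.40), and in the treated cultures it was between 0.142 and 3.2 CPM against an untreated median of 19.9. Gpr183, a receptor for oxysterols, fell by 2.91 (SE 0.38), with IFNa replicate 2 at 11.5 CPM and the other treated cultures at most at 1.65, and Scd2, a fatty acid desaturase, fell by 2.73 (SE 0.41).

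Of 20 genes of sterol synthesis and uptake, 4 were lower, Fdft1 and Cyp51 among them, and Abcg1, a sterol exporter, was higher, and with plate as a term 10 were lower. At 24 h 11 were lower, and 8 with plate as a term. Fdft1, squalene synthase, was at 12.2, 49.9 and 107 CPM in untreated cultures, at 4.06, 6.6 and 26.7 with IFNa, and at 7.16, 8.84, 16.3 and 11.3 with IFNb. IFNa replicate 7 and IFNb replicate 3 overlapped the lower untreated cultures, and the change was -2.10 (SE 0.30, adjusted p = 1.37e-08). The median change of the list was -0.83 at 72 h and -1.06 at 24 h, and with plate as a term -0.996 and -0.927.

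Of 20 cell cycle genes 4 were lower at 72 h and 17 at 24 h, with medians of -1.33 and -1.46. With plate as a term 16 were lower at 72 h, with a median of -1.69, but this came from IFNb on its single plate. With plate IFNb alone had 16 lower (median -3.24), whereas IFNa had 0 lower and 1 higher (median -0.09). Top2a, a topoisomerase of dividing cells, was at 0, 55.9 and 463 CPM in untreated cultures, at 1.24, 18.4 and 27.8 with IFNa and at 12.8, 5.51, 26 and 6.85 with IFNb. Untreated cultures spanned both groups. The change was -2.16 (SE 0.67, adjusted p = 0.0222), it was lost without IFNb replicate 2 or 4 (-2.02, adjusted p = 0.0643, and -2.06, adjusted p = 0.0577), and with plate it was -2.82 (adjusted p = 2.16e-05), at -0.98 with IFNa (adjusted p = 0.429) and -4.65 with IFNb. Its untreated cultures were at 261 to 463 CPM on plate B, in middle wells, and at most 71.7 on plates A and C, in edge or corner wells. Of 15 homeostatic microglia genes, Tmem119 and Fcrls were lower and Selplg and Olfml3 higher (list median -0.26). With plate the change of Selplg was 0.99, under the minimum. Fcrls was at 8.56, 420 and 716 CPM in untreated cultures and at 198, 214, 162 and 110 with IFNb, and with IFNa at 3.13, 113 and 170. It fell by 1.89 (SE 0.45, adjusted p = 0.00138), with IFNb alone at -0.93 (adjusted p = 0.557). The change of Tmem119, a microglial surface protein, was -1.94 (SE 0.46, adjusted p = 0.00132), at untreated levels of 0.0941 to 42.8 CPM. Of 19 disease-associated microglia genes Axl, a receptor for dying cells and a known interferon target, was higher (2.38, SE 0.44, adjusted p = 1.38e-05), and Itgax and Cd9 were lower, with a list median of -0.20.

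Igf1, a growth factor of that list, was closer to control at 72 h. At 24 h it was at 597, 1294 and 1831 CPM in untreated cultures, at 287, 512 and 693 with IFNa, and at 184, 392 and 734 with IFNb, a change of -1.52 (adjusted p = 1.94e-21). At 72 h it was at 647, 1744 and 2235 CPM in untreated cultures, at 810, 1063 and 1229 with IFNa, and at 1606, 1610, 1471 and 1566 with IFNb. The 72 h groups overlapped, the change of -0.38 was not called (adjusted p = 0.101), and the difference between times was 1.14 (SE 0.19, adjusted p = 0.000114). Fn1, fibronectin, was named by the size of its difference, 2.48 (SE 0.57, adjusted p = 0.011). Its untreated median was 62 CPM at 24 h and 3.71 at 72 h, while the IFNa medians were 5.14 and 3.27. Neither Igf1 nor Fn1 was among the 14 genes whose difference was called for IFNa within 1 lot.

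IFNb was compared with IFNa directly, although the doses differed (0.0001 and 0.0008 ug/ul) and no plate held both. The difference was called in 56 genes (0.436%) higher with IFNb and 7 (0.0545%) higher with IFNa. With plate as a term, which links them through untreated cultures of plates A, B and C, the counts were 8 and 55, so the direction of the calls turned round. Without single cultures the total of 63 ran from 0 to 246. It was 0 without IFNa replicate 4 or without IFNb replicate 1, 2 or 4, and 2 without IFNb replicate 3. It was 201, 246 and 145 without IFNa replicates 1, 2 and 3, and 12, 3 and 13 without replicates 5, 6 and 7. Without a plate term 1524 genes had an unadjusted p under 0.05 with IFNb higher and 394 with IFNa higher, and the median difference over all genes was 0.28. Differences between IFNa and IFNb at 72 h cannot be told apart from plate. The untreated cultures that link them also differed in well position, in the middle on plate B and at edges or corners on plates A and C.

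Of the genes in the role lists, Tnfaip3, H2-Aa, Fcgr4 and Gpr34 were called, each higher with IFNb, and the calls of these 4 genes were lost with plate as a term. For Isg15 the difference was 1.43 (SE 0.69, adjusted p = 0.303) without and 0.09 with plate. Fcgr4, a receptor for IgG, was 2.53 higher with IFNb (SE 0.58, adjusted p = 0.032). It was at 1221, 1114, 1247 and 1313 CPM with IFNb, all above the IFNa cultures, which ran from 62.4 to 826, and with plate the difference was 0.82 (adjusted p = 0.703). Gpr34, a lipid receptor of microglia, was at 22, 28.9, 24.9 and 23.3 CPM with IFNb and at most 3.54 with IFNa, a difference of 3.77 (SE 0.93, adjusted p = 0.0372), and of 0.52 with plate (adjusted p = 0.921). Sqstm1, an autophagy receptor, was lower with IFNb by 2.00 (SE 0.47, adjusted p = 0.032), and by 0.49 with plate (adjusted p = 0.755). For Gbp2 the difference was -0.17 and was not called, and with plate it was -2.97 (adjusted p = 0.00259), where its untreated median on plate B was 71.3 CPM against 14.7 and 3.1 on plates A and C. Plate as a term also gave calls lower with IFNb for C2 (-1.84, adjusted p = 0.00853) and for 8 of 20 cell cycle genes, among them the cyclins Ccna2, Ccnb1 and Ccnb2 (-5.08, -4.34 and -5.62). The median difference of the cell cycle list was -3.17 with plate and -0.04 without it, where none of its genes was called.

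**Figure D4:**
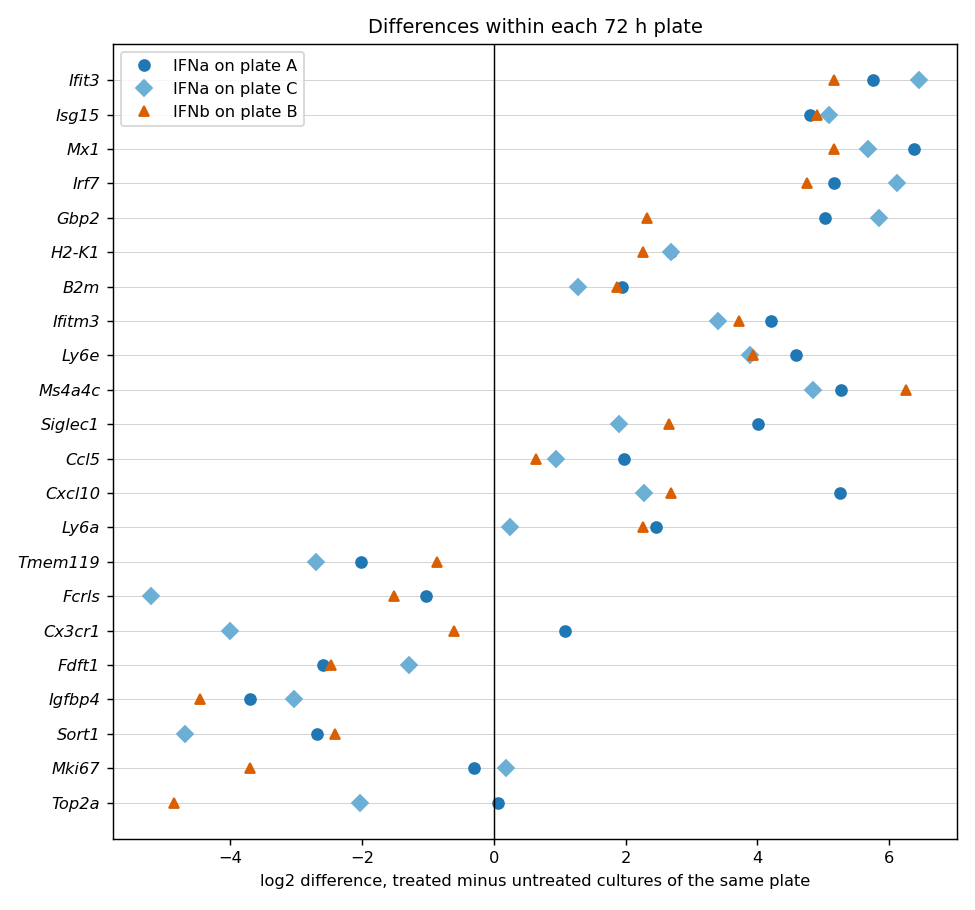
Log2 difference between treated and untreated cultures of the same 72 h plate for 22 genes, for IFNa on plates A and C and IFNb on plate B. On plate A most IFNa cultures were in middle wells and the untreated ones in edge or corner wells. Ifit3 to Ly6e are above 0 on all 3 plates, Cxcl10 runs from 2.28 to 5.26, Gbp2 is lower on plate B (2.32), and Igfbp4 is below 0 on all 3 (-3.03 to -4.46).

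Against IFNg at 72 h, the mean of both type I interferons was higher in 1077 genes (8.39%) and lower in 314 (2.44%), and with plate in 778 and 296. The median difference over all genes was 0.24. No plate held both IFNa and IFNg, so differences between these groups cannot be told apart from plate. Values below are from the fit without plate unless stated. Antiviral effectors were higher with type I interferon in 31 of 41 genes and lower in 1, with a median difference of 2.51. Among all genes tested Ms4a4c, of the surface receptor list, had the largest positive difference, 6.34 (SE 0.59, adjusted p = 2.3e-15), and was at 0, 1.67 and 10 CPM with IFNg, inside the untreated range. Isg20, an exonuclease that degrades viral RNA, was between 25.1 and 121 CPM with IFNa and at 50.6, 51.1, 44.3 and 58.2 with IFNb. It reached only 3.19 CPM with IFNg, a difference of 5.09 (SE 0.52, adjusted p = 1.66e-13). Ifit3 was at 405 to 1144 CPM with IFNg, below all type I cultures, and differed by 2.48 (SE 0.61, adjusted p = 0.00234). ISG15 conjugation was higher with type I interferon in 4 of 6 genes and nucleic acid sensors in 11 of 19.

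Guanylate-binding proteins and immunity-related GTPases went the other way, with 14 of 19 lower with type I interferon than with IFNg and 1, Gbp9, higher, and a median difference of -2.42. Gbp2 was at 10070, 11900 and 12980 CPM with IFNg, above the highest type I culture at 719, and differed by -4.84 (SE 0.53, adjusted p = 3.9e-12). MHC class II was lower with type I interferon in 5 of 6 genes, with a median difference of -7.57. H2-Eb1 was at 424 to 12660 CPM with IFNg, at most 1 with IFNa, and 3.91, 5.6, 16.6 and 26.1 with IFNb, a difference of -9.24 (SE 0.74, adjusted p = 5.85e-19). Cd74, the chaperone of class II molecules, differed by -7.14 (SE 0.46). Ly6a, at 472 to 1021 CPM with IFNg, differed by -6.37 (SE 0.67, adjusted p = 8.06e-13). Naaa, an amidase that breaks down N-acylethanolamines, was at 1.82 to 9.3 CPM with type I interferon and at 5.57 to 83 with IFNg, and differed by -2.83 (SE 0.52, adjusted p = 2.98e-05). Its change against untreated cultures, 0.69, was not called (adjusted p = 0.287).

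MHC class I genes lay between these groups, with 4 of 24 higher and 1 lower with type I interferon and a median difference of 0.16. With plate as a term 4 were higher and 3 lower, and the median difference was -0.05. The difference was -0.28 for B2m (SE 0.21, adjusted p = 0.418) and -0.31 for Tap1 (SE 0.37, adjusted p = 0.651), neither of which was called. With plate that of B2m was -0.66 (adjusted p = 0.00946), under the minimum change. Among transcription factors Irf1 was lower by 2.37 (SE 0.35, adjusted p = 9.4e-08) and Irf7 higher by 3.31 (SE 0.50, adjusted p = 2.12e-07) with type I interferon. Socs1 was at 50.4, 300 and 758 CPM with IFNg, and differed by -3.01 (SE 0.63, adjusted p = 0.000309). Among chemokines Cxcl9, at 0.807 to 558 CPM with IFNg and at most 15.3 with type I interferon, was lower by 4.36 (SE 0.67, adjusted p = 3.27e-07). Ccl9 was higher by 2.92 (SE 0.36, adjusted p = 5.61e-10), at 164, 164, 171 and 178 CPM with IFNb against at most 29.8 with IFNg.

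**Figure D5:**
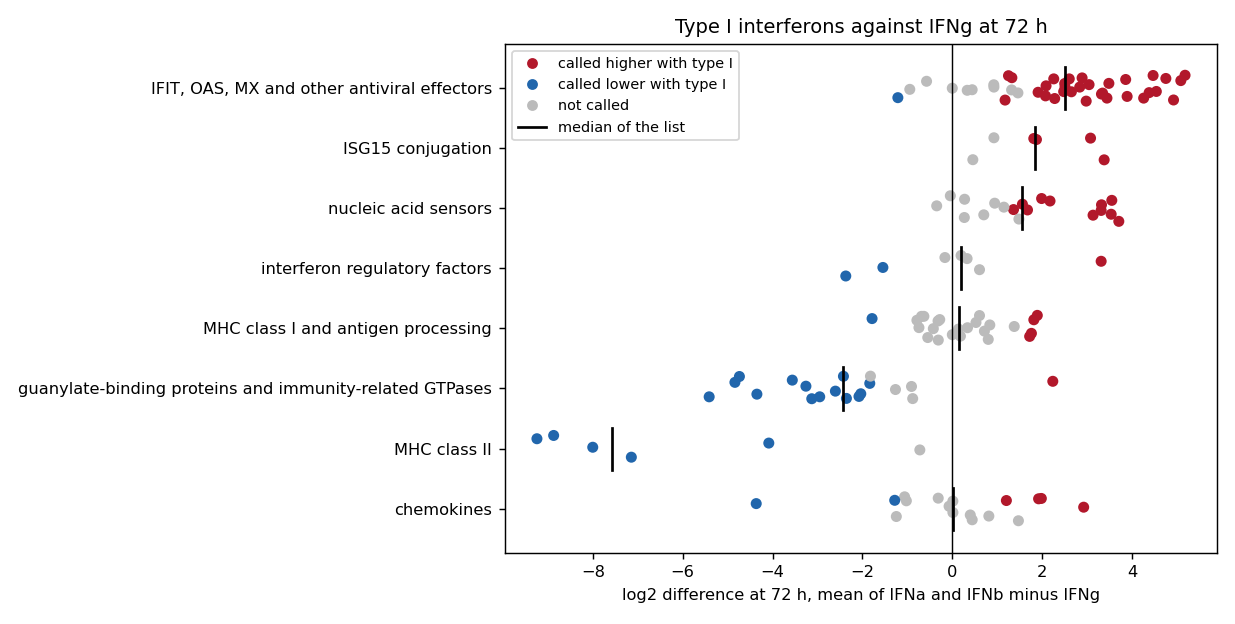
Log2 difference at 72 h between the mean of IFNa and IFNb cultures and IFNg cultures for the genes of 8 lists. Red points were called higher with type I interferon, blue points lower and grey points were not called, and bars are list medians. The antiviral list lies to the right (median 2.51), GTPases (-2.42) and MHC class II (-7.57) to the left, and MHC class I near 0 (0.16).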

How the data were processed

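RNA was measured by 3′-end sequencing in pooled, barcoded libraries of single culture wells, and 100 cultures entered the analysis (the untreated, IFNa and IFNb groups at 24 and 72 h and IFNg at 72 h). Salmon 0.7.1 was run by the authors against Ensembl Mus musculus build 81. Isoform reads were added up per gene and expressed relative to the mapped total, and the result was deposited by the authors as CPM. The paper calls these values TPM, but no division by length is described. The table gives no coordinates, and the submitters' processing notes name the genome build mm8, although that Ensembl release is of GRCm38. Cultures under 1 M mapped reads or with few genes had been dropped by the authors. Columns of 684 cultures under other conditions were not used. Values are relative to all mapped reads, so strong rises lower other genes.

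Mapped reads per culture were taken as 1e6 divided by the step between low values. Only 72 to 86.2% of low values per culture came out whole (tolerance 0.1 read), and counts were not rebuilt. The shallowest culture had 1.09 M mapped reads, where 1 CPM is about 1 read, and no interval was attached to single values. No 2 cultures held identical values, and the highest correlation between a pair was 0.976.

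Groups came from the labels, and plate and well from the table's header. The header gives a source ID for each culture, which was read as the lot of cells. Genes above 5 CPM in at least 4 of the cultures were tested with limma 3.58.1 (R 4.3.3) on log2(CPM + 1), with 1 mean for each of 7 groups, a mean-variance trend and Benjamini-Hochberg adjustment over all genes tested. This was tested on simulated data. In the text an adjusted p is from this fit unless another is named. Calls needed an adjusted p under 0.05 and a log2 change of at least 1. Alternatives were other pseudocounts and filters, no minimum change, an exact rank-sum test, rescaling, plate or library pool as a term, other groupings of the fit, and leaving out each treated culture. Chosen after seeing the data were the fits without untreated replicate 10, with middle wells only and within 1 lot. Tables and plots were made in Python 3.11.15 (pandas 2.3.3, numpy 2.4.6, matplotlib 3.10.9, and scipy 1.17.1 for the rank-sum test).

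The genes and lists were chosen with earlier results of these data known. The 19 lists of roles hold 324 genes, 299 of them tested. Named are members of these lists, the 15 largest rises and 10 largest falls with both interferons, the 10 most positive and 10 most negative differences between 72 and 24 h, the 5 at each end of the other differences, and the genes Ifit3 and Naaa. Some genes that meet this rule are not reported here. Promoters were RefSeq sequences of GRCm38.p6, matched by symbol for 8936 of 12843 tested genes.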

Additional observations from a re-analysis of the deposited data

Results flagged for a closer look

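In groups of 4 or 7 treated cultures at 72 h, 24 of 248 groups of values, over 124 genes, had a culture whose gap to the rest passed Dixon's 95% value, where chance gives about 1 in 20. With IFNb, replicate 2 was highest for Gbp6 (7.542 CPM, the others listed at 0) and lowest for Ly6e (2032 CPM, next 2263). Replicate 3 was lowest for Tlr7 (129.6 CPM), replicate 4 highest for Sort1 (58 CPM) and replicate 1 lowest for Ccl12 (9.05 CPM). With IFNa, replicate 5 was highest for Ifi44 (107.5 CPM, next 38.52), B2m (8857 CPM) and Cd274 (184.8 CPM, next 45.66), and lowest for H2-D1 (2701 CPM, next 5582) and Il15 (3.492 CPM, next 50.63). Replicate 1 was highest for Tmem173 (197.3 CPM), Naaa (9.304 CPM) and Scd2 (6.757 CPM). Replicate 2 was highest for Ly6a (32.73 CPM), Gbp6 (1.155 CPM) and Gpr183 (11.49 CPM). Replicate 3 was highest for Cd74 (0.5068 CPM) and H2-Ab1 (13.89 CPM), and replicate 4 for Fn1 (29.52 CPM) and Cd9 (273 CPM). Replicate 6 was highest for Itgax (46.17 CPM), and replicate 7 for Fdft1 (26.68 CPM), Mlkl (307.9 CPM) and H2-Eb1 (1.003 CPM).

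The change with both interferons at 72 h minus that at 24 h, on the log2 scale, was called in limma for 16 of these 124 genes. It was negative for Klrk1 (-3.74), Ly6a (-3.04), Scimp (-2.66), Tgtp1 (-2.49), Il1rn (-2.39), Gbp6 (-2.23), Cxcl11 (-2.08), Ifi44l (-1.56), Gbp11 (-1.42) and Tapbp (-1.03). It was positive for Rn7sk (2.90), Fn1 (2.48), H2-Q7 (2.02), H2-Q6 (1.72), H2-K1 (1.17) and Igf1 (1.14). Rn7sk, a small RNA of the transcription machinery, was listed at 0 in the median untreated culture of 72 h and at 748 CPM in 1 of them. The plates and 2 of the 3 lots at 24 h differ from those at 72 h, so time cannot be told apart from plate, nor, for IFNb, from lot.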

How the results depend on the processing

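The counts of genes called with IFNa (1239) and with both interferons at 72 h (960) stayed within 1.5 times of these values except for 646 with IFNa in the exact rank-sum test and 622 with both interferons at a pseudocount of 5. For both interferons at 24 h (1539) they were 3269 without a minimum change and 761 at a pseudocount of 5. IFNb minus IFNa (63) gave 106 at a pseudocount of 5. The difference between times (56) gave 100 with culture plate as a term, 94 with plate and without untreated replicate 10, and 105 with library pool. The share of genes higher at 24 h that were higher at 72 h (71.3%) was 57.6% without a minimum change, 65.3% with plate, 64.8% with plate and without replicate 10, 64.7% with library pool, 76.8% among genes above 20 CPM and 66.5% at a pseudocount of 0.5. Leaving out 1 treated culture at a time gave 1040 to 1337 genes with IFNa, 497 to 725 with IFNb, 809 to 976 with both at 72 h, 1537 to 1542 at 24 h, 41 to 64 for the difference between times, 0 to 246 for IFNb minus IFNa, 1186 to 1554 against IFNg and 67.4 to 72.7% for the share. The causes were not tested. Values of the genes named were also tallied, for the change with both interferons at 72 h and the difference between times. Of these, 5450 kept their direction and side of the threshold under an alternative, 87 lost a call, 31 gained one. None that was called turned in direction. The tally leaves out the comparisons of IFNb with IFNa and of type I interferon with IFNg. No paired analysis was possible because replicate numbers were given in accession order and pair no cultures. The 4 IFNb cultures lie on 1 plate, and at the lowest depth of 1.29 M mapped reads a gene of 1 CPM stands for about 1 read.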
